A study of Rattus norvegicus with 9 samples.

Results

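The 7 genes described here encode the enzymes that make catecholamines, and the enzymes that make or recycle a cofactor of the first step, in the rat adrenal medulla. They are Th, Ddc, Dbh, Pnmt, Gch1, Pts and Qdpr with every probe set that the platform's annotation assigns to exactly 1 of these symbols. That gave 9 probe sets, since Ddc and Gch1 have a pair each, out of 31042 probe sets and 14217 named genes on the array. All 9 passed a filter that left out the dimmest 30% of probe sets, after which 21729 were tested.

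The study compared adult rats of 280 to 320 g in 3 groups of 3 Affymetrix arrays each. Control rats were not stressed. 1XIMO rats were immobilized once for 2 h, and 6XIMO rats for 2 h a day on 6 days, with both adrenal medullae dissected after the last session. No genotype, transgene or drug is named, so the groups differed, by their labels, only in immobilization. The labels give Rattus norvegicus as the organism and the array is a rat array, while some label fields say mouse and brain. Nothing in the labels ties each array to an animal of its own, and p-values then reflect only the spread between these samples, which may be technical.

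Catecholamines are made from tyrosine in a chain of enzymes. Tyrosine hydroxylase (Th) makes L-DOPA and is the rate-limiting step, Ddc converts L-DOPA to dopamine, Dbh converts dopamine to noradrenaline, and Pnmt methylates noradrenaline to adrenaline, the main hormone of the medulla. Th needs tetrahydrobiopterin, for which GTP cyclohydrolase 1 (Gch1) catalyses the first and rate-limiting step, Pts the next step and Qdpr the recycling after use. Chromaffin cells, the secretory cells of the medulla, are known to raise several of these transcripts in response to stress, through nerve signals and glucocorticoid from the adrenal cortex.

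Promoter sequences of 6 of the 7 genes were found in RefSeq's table for the build GRCr8, and Pnmt was the other. Those of Th, Dbh and Gch1 are shown because the results turn on these genes, and that of Gchfr because it codes for the regulator of Gch1 and rose beside it. Each is read 5′ to 3′ on the gene's own strand within the 250 bases before the start site, without any base inside an annotated gene model. The stretch of Th thereby ends 59 bases and that of Dbh 16 bases before the start, and the bases nearer to it are not shown. Capitals mark matches to the motifs searched.
Th, chr1:207508277-207508468, minus strand: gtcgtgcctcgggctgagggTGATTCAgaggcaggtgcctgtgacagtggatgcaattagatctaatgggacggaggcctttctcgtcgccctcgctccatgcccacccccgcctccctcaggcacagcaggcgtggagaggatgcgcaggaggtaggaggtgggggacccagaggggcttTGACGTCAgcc
Dbh, chr3:30886078-30886312, plus strand: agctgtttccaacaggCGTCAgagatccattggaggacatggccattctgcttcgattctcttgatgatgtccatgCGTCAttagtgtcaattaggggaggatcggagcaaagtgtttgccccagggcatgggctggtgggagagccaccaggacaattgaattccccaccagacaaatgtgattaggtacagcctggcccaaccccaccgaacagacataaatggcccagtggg
Gch1, chr15:22917413-22917662, minus strand: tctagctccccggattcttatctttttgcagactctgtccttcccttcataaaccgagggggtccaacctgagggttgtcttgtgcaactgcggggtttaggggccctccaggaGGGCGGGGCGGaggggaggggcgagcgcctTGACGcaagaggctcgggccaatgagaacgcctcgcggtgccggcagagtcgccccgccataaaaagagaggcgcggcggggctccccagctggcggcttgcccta
Gchfr, chr3:126611642-126611891, plus strand: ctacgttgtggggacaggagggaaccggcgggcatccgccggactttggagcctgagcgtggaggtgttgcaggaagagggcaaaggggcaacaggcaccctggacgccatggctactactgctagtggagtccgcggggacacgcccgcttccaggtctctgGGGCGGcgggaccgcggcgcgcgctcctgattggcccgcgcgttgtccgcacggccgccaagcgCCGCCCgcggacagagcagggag
The motifs were the cAMP response element (CRE) TGACGTCA, its half-site TGACG, the AP-1 site TGANTCA and the GC box GGGCGG, each searched on both strands. The Th stretch holds a full CRE 69 to 62 bases before the start, which contains a pair of overlapping half-sites, and an AP-1 match 230 to 224 bases before it. The Gch1 stretch holds a half-site 106 to 102 bases before the start and a pair of overlapping GC boxes. The Dbh stretch holds half-sites at 234 to 230 and 174 to 170 bases, and the Gchfr stretch GC boxes at 87 to 82 and 23 to 18 bases. Among 33469 rat promoters, each searched over the full 250 bases before the start, 1.59% hold the CRE and 18.2% the half-site. The AP-1 site is in 6.34% of them and the GC box in 30.5%. Of the stretches not shown, that of Qdpr holds 4 GC boxes and that of Pts none of the motifs. Ddc has more than 1 start site entry. The entry that reaches outside the gene model, with 203 bases, holds an AP-1 match. The other Ddc entries lie wholly inside the gene model and hold none of the motifs. A match is a description of the letters and not a measured binding site.

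Levels are given below as log2(intensity + 16) of the deposited intensities. Levels of different probe sets cannot be set against each other, so only differences between groups are compared. The arrays of the 6XIMO group stood apart from the others. Their actin 3′/5′ ratio, which rises as the labelled RNA gets shorter, was 231, 6.11 and 8.87 in replicates 1, 2 and 3. It was 1.45 to 2.15 on the Control arrays and 1.57 to 1.99 on the 1XIMO arrays. The correlation of 6XIMO replicate 1 with each of the other 8 arrays was 0.53 to 0.67, and that of those 8 with one another 0.83 to 0.98. The deposited arrays share a trimmed mean of about 2500, but the 99th percentile of log2 levels was 15.42 to 15.87 in 6XIMO, 14.87 to 15.06 in Control and 14.90 to 15.40 in 1XIMO. RNA quality, scale and 6 sessions cannot be told apart in any 6XIMO comparison. Calls that rest on the 6XIMO arrays are therefore given also without replicate 1 and after quantile normalization.

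The tissue label was checked against markers. Of 9 chromaffin markers, 7 have a probe set and all 7 passed the filter. Of 11 adrenal cortex markers, 8 have a probe set and all 8 passed too, so cortex RNA was present in all groups. The chromaffin level, the mean log2 level over the list, was 13.59 to 14.06 in Control, 13.89 to 14.29 in 1XIMO and 14.51 to 14.83 in 6XIMO. The cortex level was 15.09 to 15.54, 15.08 to 16.26 and 16.45 to 16.98 in the same order. Of 6 brain markers, Slc17a7, Neurod6, Olig2 and Gad1 did not pass the filter, and Gfap and Mbp did. The mean level of those 2 was 10.40 to 10.94 in Control, 11.39 to 11.82 in 1XIMO and 11.44 to 11.77 in 6XIMO, higher on all stressed arrays than on any Control array. Neither Gfap nor Mbp was called in any comparison by limma, and their part in the results was not tested. The brain markers that did not pass moved unalike. Their means in Control, 1XIMO and 6XIMO were 5.74, 9.29 and 8.95 for Gad1 and 8.52, 7.67 and 8.68 for Slc17a7. For Olig2 they were 8.43, 8.34 and 7.98, and for Neurod6 7.82, 7.92 and 7.69. The Schwann cell list, of which Sox10 and S100b passed the filter, averaged 11.11, 10.59 and 10.75 in the same order. In whole tissue, fewer cells of a type and less RNA per cell cannot be told apart.

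**Figure D1:**
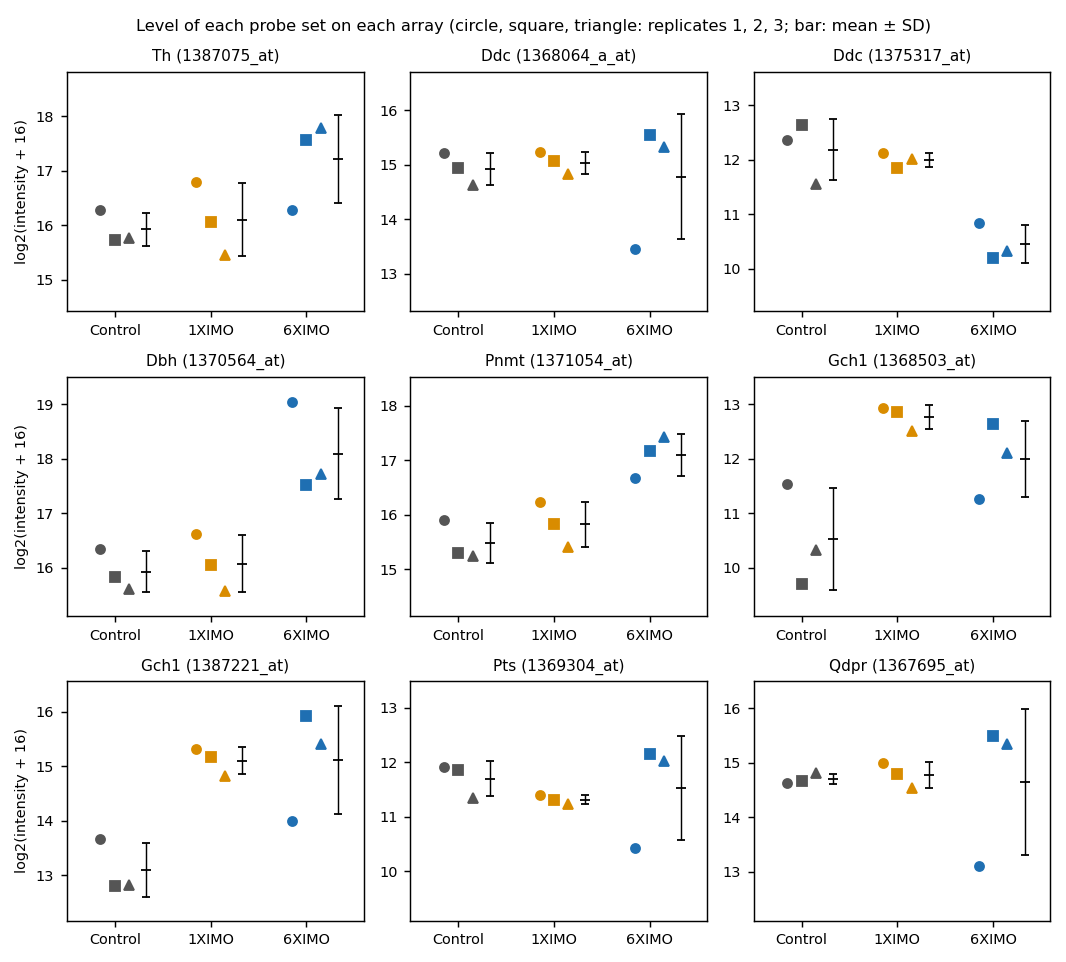
Level of each of the 9 probe sets, as log2(intensity + 16), on each of the 9 arrays by group; circles, squares and triangles are replicates 1, 2 and 3, and the bar is the mean ± SD over 3 arrays. Both Gch1 probe sets stood higher on all 1XIMO arrays than on any Control array, Ddc 1375317_at stood lower on all 6XIMO arrays, and 6XIMO replicate 1 (circle) lay apart from the other 6XIMO arrays for most probe sets.

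After 1 session, Gch1 was the only gene of the 7 that passed the test, on both of its probe sets, and it rose about 4-fold. Th, Ddc, Dbh, Pnmt, Pts and Qdpr did not pass. Thus 2 of 9 probe sets were called higher and 0 lower, where 3.16% of all probe sets tested were called higher and 2.77% lower by limma at an adjusted p under 0.05. At an unadjusted p under 0.05, 3870 probe sets of the 21729 passed. The median difference of the 9 probe sets was 0.15, against -0.11 over all probe sets.

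Gch1 probe set 1387221_at read 13.67, 12.80 and 12.81 on the Control arrays, 15.31, 15.17 and 14.82 on the 1XIMO arrays and 14.00, 15.92 and 15.41 on the 6XIMO arrays. Every stressed array was above every Control array, and 6XIMO replicate 1 was the lowest of them. The 1XIMO mean was 15.10 ± 0.25 (SD, n = 3) against 13.09 ± 0.50 in Control, a 4.02-fold difference (log2 difference 2.01 ± 0.45 SE, adjusted p = 0.0311 by limma). The other Gch1 probe set, 1368503_at, read 11.53, 9.69 and 10.32 in Control, 12.92, 12.85 and 12.50 in 1XIMO and 11.25, 12.64 and 12.10 in 6XIMO. All 1XIMO arrays lay above all Control arrays, while 6XIMO replicate 1 lay below Control replicate 1. Its 1XIMO difference was 2.24 ± 0.47 SE, 4.74-fold, with an adjusted p of 0.0226 by limma.

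Deviations of same-numbered Control and 1XIMO arrays correlated, though a pairing was not established. With the replicate number as a block, the Gch1 differences of 2.24 and 2.01 had adjusted p = 0.0553 and 0.0675 by limma and were not called. Leaving out Control replicate 2 or 3 or any 1XIMO array also ended both calls. Over all settings tried the Gch1 difference after 1 session stayed between 1.83 and 2.75 for 1368503_at and between 1.83 and 2.29 for 1387221_at, with adjusted p from 1.56e-05 to 0.143 and from 2.46e-06 to 0.242. Without 6XIMO replicate 1, which is not in this contrast but shares the estimate of spread, the adjusted p values were 0.00315 and 0.000513.

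After 6 sessions, Gch1 probe set 1387221_at was still 4.05-fold above Control (log2 difference 2.02 ± 0.45 SE, adjusted p = 0.0143 by limma), with a mean of 15.11 ± 0.99 (SD, n = 3). Probe set 1368503_at averaged 11.996 ± 0.70, and its difference from Control of 1.48 ± 0.47 SE missed the threshold (adjusted p = 0.0517 by limma). Without Control replicate 1 it was 1.99 (adjusted p = 0.0207) and without 6XIMO replicate 1 it was 1.85 (adjusted p = 0.00757), both called, within a range over settings of 1.55e-05 to 0.187. Between 6 and 1 sessions the differences were 0.01 (95% interval -1.004 to 1.02) and -0.76 (-1.81 to 0.29), neither called. These intervals are wide and do not show that the levels were alike. In order of level, Control was lowest on both probe sets, and the stressed groups did not differ beyond their spread.

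**Figure D2:**
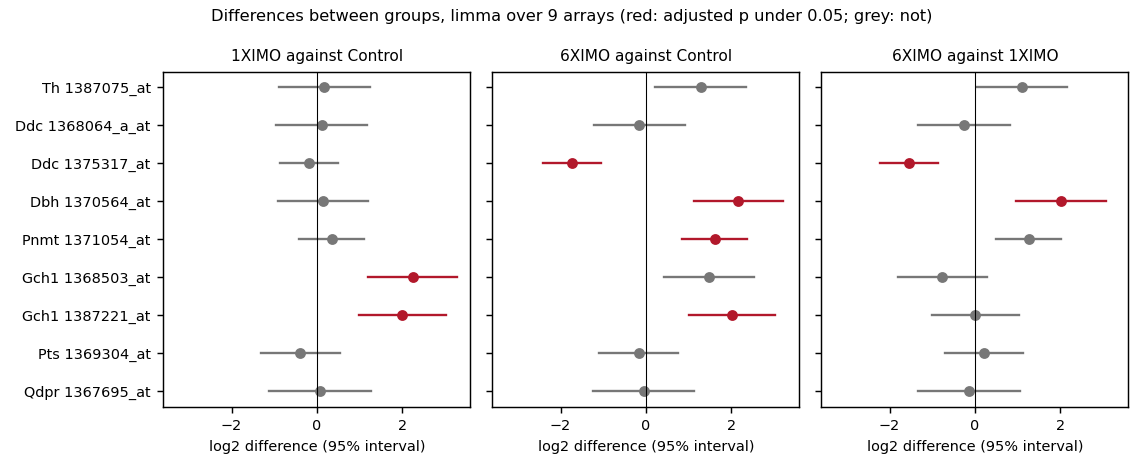
Log2 difference between groups for each probe set with its 95% interval from limma over 9 arrays, in 3 panels for the 3 comparisons; red marks an adjusted p under 0.05. Gch1 alone is red after 1 session, and Dbh, Pnmt, Gch1 1387221_at and Ddc 1375317_at are red after 6.

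After 6 sessions, Dbh and Pnmt were higher than in Control along with Gch1, Ddc was lower on 1 of its 2 probe sets, and Th missed the threshold. Of the 9 probe sets, 3 were called higher and 1 lower, where 6.97% of all probe sets tested were called higher and 12.9% lower. The median difference of the 9 was 1.29, against -0.27 over all probe sets. The comparisons of 1XIMO and of 6XIMO with Control share the Control arrays and are not independent.

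Th, whose product makes L-DOPA, read 16.28, 15.72 and 15.76 in Control, 16.79, 16.06 and 15.45 in 1XIMO and 16.28, 17.56 and 17.78 in 6XIMO. 6XIMO replicates 2 and 3 were above every other array, while 6XIMO replicate 1 was level with Control replicate 1 to 2 decimals. The means were 15.92 ± 0.31, 16.10 ± 0.67 and 17.21 ± 0.81 (SD, n = 3). The difference of 6XIMO from Control was 1.29 ± 0.48 SE with an adjusted p of 0.0857 by limma, and that of 1XIMO was 0.18 ± 0.48 SE (95% interval -0.88 to 1.24). Without 6XIMO replicate 1 the 6XIMO difference was 1.75 and passed (adjusted p = 0.00274 by limma), and after quantile normalization it was 0.01 (adjusted p = 0.973). Over all settings its adjusted p ran from 1.76e-06 to 0.973, with a call in 2 of 21 other settings.

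Dbh, the enzyme that makes noradrenaline inside the secretory granule, read 16.35, 15.83 and 15.61 in Control, 16.61, 16.05 and 15.57 in 1XIMO and 19.05, 17.52 and 17.72 in 6XIMO. All 6XIMO arrays lay above all others, and replicate 1 was the highest of them. The 6XIMO mean of 18.10 ± 0.83 was 4.5-fold above the Control mean of 15.93 ± 0.38 (log2 difference 2.17 ± 0.47 SE, adjusted p = 0.0122 by limma). Dbh also rose from 1 to 6 sessions, by 2.02 ± 0.47 SE (adjusted p = 0.0328 by limma), while 1XIMO at 16.08 ± 0.52 did not differ from Control beyond the spread (0.15 ± 0.47 SE). The call between 6 and 1 sessions was lost when any Control or 1XIMO array or 6XIMO replicate 3 was left out, with differences of 1.77 to 2.29.

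Pnmt, the enzyme that makes adrenaline, read 15.90, 15.29 and 15.24 in Control, 16.23, 15.83 and 15.41 in 1XIMO and 16.67, 17.17 and 17.43 in 6XIMO. Again every 6XIMO array was above every other array. The 6XIMO mean of 17.09 ± 0.38 was 3.07-fold above the Control mean of 15.47 ± 0.37 (log2 difference 1.62 ± 0.34 SE, adjusted p = 0.0110 by limma). From 1 to 6 sessions the difference was 1.27 ± 0.34 SE and missed the threshold (adjusted p = 0.0511), and 1XIMO at 15.82 ± 0.41 was 0.35 ± 0.34 SE above Control, which was not called.

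The calls of Dbh and Pnmt after 6 sessions were lost when the arrays were given a common distribution, and that of Gch1 1387221_at was kept. The Control means of Dbh (15.93), Pnmt (15.47) and Th (15.92) already lay above the 99th percentile of the Control arrays (14.87 to 15.06). That of Gch1 1387221_at (13.09) lay below it. A common distribution leaves probe sets at its top little room to rise, so this contrast cannot tell which rise was firmer. After quantile normalization, which gives all arrays the same distribution, the 6XIMO differences from Control were 0.30 for Dbh (adjusted p = 0.178 by limma) and 0.45 for Pnmt (adjusted p = 0.156), neither called, and 1.77 for Gch1 1387221_at (adjusted p = 0.0134). Across settings the adjusted p of the 6XIMO difference ran from 1.02e-06 to 0.197 for Dbh, from 2.1e-07 to 0.156 for Pnmt and from 6.85e-08 to 0.106 for Gch1 1387221_at. On that scale 2 of 9 probe sets were called, 1 higher and 1 lower, where 6.87% of all probe sets were higher and 6.53% lower. Without 6XIMO replicate 1 on the deposited scale, 6 were higher and 1 lower, among them Th and Qdpr, where 13.3% of all were higher and 31.4% lower. Dbh was then 1.69 above Control (adjusted p = 0.00175), Pnmt 1.83 (adjusted p = 0.000673) and Gch1 1387221_at 2.57 (adjusted p = 0.000164). With both changes, Pnmt at 0.51 (adjusted p = 0.0192) and both Gch1 probe sets, at 2.04 and 2.03, were called higher, and Th at 0.26 and Dbh at 0.21 were not. Of all 21729 probe sets, 2907 were then called higher and 3578 lower.

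Other settings moved the same results. The median of all probe sets, -0.27 on the deposited scale, was -0.17 after quantile normalization, -0.10 after median centring and -1.04 after shifting each array by its chromaffin markers. After that shift Dbh at 1.40 and Gch1 1387221_at at 1.24 were still called higher than Control, Pnmt at 0.85 and Th at 0.51 were not. After median centring Dbh at 2.34 stayed called, and Pnmt at 1.79 and Gch1 at 2.19 and 1.65 were not. Without Control replicate 2, and likewise without Control replicate 3, Ddc 1375317_at was the only probe set of the 9 called. Dbh was then 2.12 and 2.01 above Control, Pnmt 1.52 and 1.499, and Gch1 1387221_at 1.87 both times. On the deposited scale, 3 of 7 chromaffin markers (Chga, Chgb and Slc18a2) and 5 of 8 cortex markers were called higher after 6 sessions than in Control. Of all probe sets, 6.97% were called higher there. Chga and Chgb, with Control means of 15.90 and 15.998, lay about as near the top of the arrays as Dbh, and Slc18a2 at 11.73 did not. Marker calls after quantile normalization are not given here. The lists did not move as one: from Control to 6XIMO the mean of Slc18a1 went from 13.90 to 12.78, that of Hand2 from 13.88 to 13.0005, that of Phox2a from 13.16 to 12.68 and that of the cortex gene Cyp11b1 from 15.02 to 13.87, none of them called. The part of these markers in the differences was not tested.

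**Figure D3:**
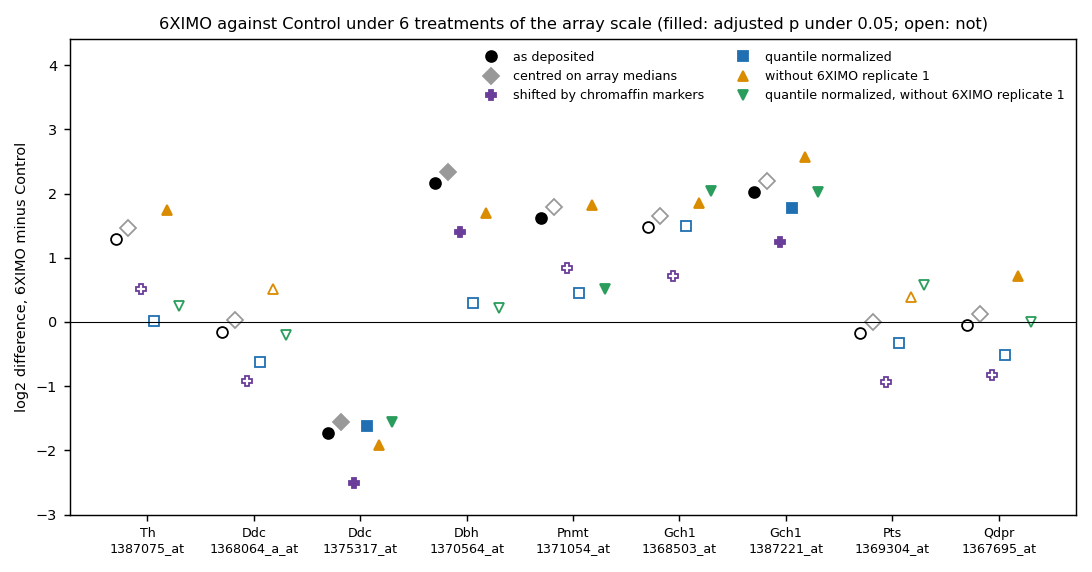
Log2 difference of 6XIMO from Control for each probe set under 6 treatments of the array scale; filled symbols have an adjusted p under 0.05 by limma. Th, Dbh and Pnmt lay near 0 to 0.5 after quantile normalization, where both Gch1 probe sets and Ddc 1375317_at moved less. Th, Dbh, Pnmt, both Gch1 probe sets and Ddc 1375317_at kept their direction under all 6 treatments.

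The probe sets of Ddc, which makes dopamine, did not move together. Probe set 1375317_at read 12.35, 12.64 and 11.56 in Control, 12.12, 11.85 and 12.02 in 1XIMO and 10.84, 10.19 and 10.33 in 6XIMO. All 6XIMO arrays were below all others. Its 6XIMO mean of 10.46 ± 0.34 was 0.302 times the Control mean of 12.18 ± 0.56, a log2 difference of -1.73 ± 0.30 SE (adjusted p = 0.00501 by limma), and it fell by 1.54 ± 0.30 SE from 1 to 6 sessions (adjusted p = 0.0199). The fall from Control was called in all 20 other settings that tested it, between -2.502 and -1.504, with adjusted p from 5.56e-06 to 0.0352. The fall from 1XIMO was called in 14 of 20 other settings, and not when any 1XIMO array or 6XIMO replicate 3 was left out (-1.61 to -1.48).

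The brighter Ddc probe set, 1368064_a_at, read 15.22, 14.93 and 14.63 in Control, 15.23, 15.06 and 14.82 in 1XIMO and 13.46, 15.55 and 15.32 in 6XIMO. 6XIMO replicates 2 and 3 were the highest of the 9 arrays and replicate 1 the lowest. Its 6XIMO difference of -0.15 was not called, and it was 0.51 without 6XIMO replicate 1 (adjusted p = 0.0564 by limma). The difference of 1375317_at from Control without that array was -1.92 (adjusted p = 0.000649), and -1.63 after quantile normalization of all 9 arrays (adjusted p = 0.0119). That from 1XIMO was -1.74 and -1.51 under the same settings, both called. The difference of 1368064_a_at from Control after quantile normalization of all 9 arrays was -0.63, not called. The size and the call of the Ddc difference after 6 sessions thus depended on the probe set, and the sign of 1368064_a_at depended on the setting. Which part of the transcript each probe set reads is not given in the sources used here, and the 3′/5′ ratios above moved with the same arrays; their part was not tested.

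Pts and Qdpr, which act after Gch1 in making and recycling tetrahydrobiopterin, did not pass the test in any comparison on all 9 arrays. Pts read 11.92, 11.85 and 11.34 in Control, 11.41, 11.30 and 11.24 in 1XIMO and 10.43, 12.15 and 12.02 in 6XIMO. The groups overlapped, and the 3 means of 11.70, 11.32 and 11.54 differed by less than the spread in 6XIMO (SD 0.96). Qdpr read 14.63, 14.67 and 14.81 in Control, 14.997, 14.80 and 14.53 in 1XIMO and 13.10, 15.50 and 15.34 in 6XIMO. For both genes 6XIMO replicate 1 was the lowest of the 9 arrays and 6XIMO replicates 2 and 3 the highest. The intervals for 1 session were -1.31 to 0.53 for Pts and -1.12 to 1.27 for Qdpr. Without 6XIMO replicate 1, Qdpr stood 0.72 above Control (adjusted p = 0.00540 by limma), and after quantile normalization without that array the difference was -0.0032. Its adjusted p over settings ran from 0.000947 to 0.998.

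From 1 to 6 sessions, 1 of the 9 probe sets was called higher (Dbh) and 1 lower (Ddc 1375317_at), where 3.3% of all probe sets were higher and 4.77% lower. The median difference was 0.01 against -0.15 over all. The Dbh difference between these groups was 0.08 after quantile normalization (adjusted p = 0.712 by limma) and 1.54 without 6XIMO replicate 1 (adjusted p = 0.00529). Its adjusted p over settings ran from 1.03e-06 to 0.769, and that of Ddc 1375317_at from 3.92e-06 to 0.0872. Without 6XIMO replicate 1, Th at 1.57, Pnmt at 1.48, Pts at 0.77 and Qdpr at 0.65 were called higher after 6 sessions than after 1 as well. Of all 21729 probe sets, 2218 were then called higher and 4434 lower.

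Differences between genes within an array are free of any common scale factor of that array. They were compared between groups with a two-sided exact permutation test over samples, for which 3 against 3 arrays can give no p below 0.1. A single value has no meaning, since it sets one probe set against another, and only its change between groups was read. The pairs were 4, in 3 comparisons each.

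Gch1 minus Th was -2.61, -2.92 and -2.95 in Control, -1.48, -0.89 and -0.63 in 1XIMO and -2.28, -1.64 and -2.37 in 6XIMO. On this probe set of Gch1, 1387221_at, all 3 groups were separate, with 1XIMO highest and Control lowest. Gch1 thus gained 1.83 on Th after 1 session (exact permutation p = 0.1, adjusted p = 0.24 over the 12 comparisons) and 0.73 after 6 (exact permutation p = 0.1). With the mean of both Gch1 probe sets the gain after 6 sessions was 0.46 (exact permutation p = 0.2). After quantile normalization the gain after 6 sessions was 1.76, and 6XIMO differed from 1XIMO by -0.11 (exact permutation p = 0.6) in place of -1.10. The order of the stressed groups thus depended on the normalization. Quantile normalization is not a common factor of an array and leaves Th, near the top, little room to rise, so it can change these differences.

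Dbh minus Th was 0.07, 0.11 and -0.15 in Control, -0.18, -0.01 and 0.13 in 1XIMO and 2.77, -0.04 and -0.06 in 6XIMO. Pnmt minus Dbh was -0.45, -0.54 and -0.38 in Control, -0.38, -0.22 and -0.16 in 1XIMO and -2.38, -0.36 and -0.29 in 6XIMO. For both pairs 6XIMO replicate 1 lay far from the other 8 arrays, among which the values ran from -0.18 to 0.13 and from -0.54 to -0.16. On 8 of 9 arrays the differences between Th, Dbh and Pnmt thus changed little. A common scale factor of an array would leave such differences unchanged too, so these pairs do not show a joint change of the genes. The exact permutation p values of these pairs were 0.2 to 1.

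Ddc (1368064_a_at) minus Th was -1.06, -0.79 and -1.14 in Control, -1.56, -0.9999 and -0.63 in 1XIMO and -2.82, -2.01 and -2.46 in 6XIMO. The 6XIMO arrays, replicate 1 included, lay below all others. Ddc lost 1.44 on Th against Control and 1.37 against 1XIMO (exact permutation p = 0.1 for each, the smallest the design allows). After quantile normalization the differences were -0.64 and -0.33.

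**Figure D4:**
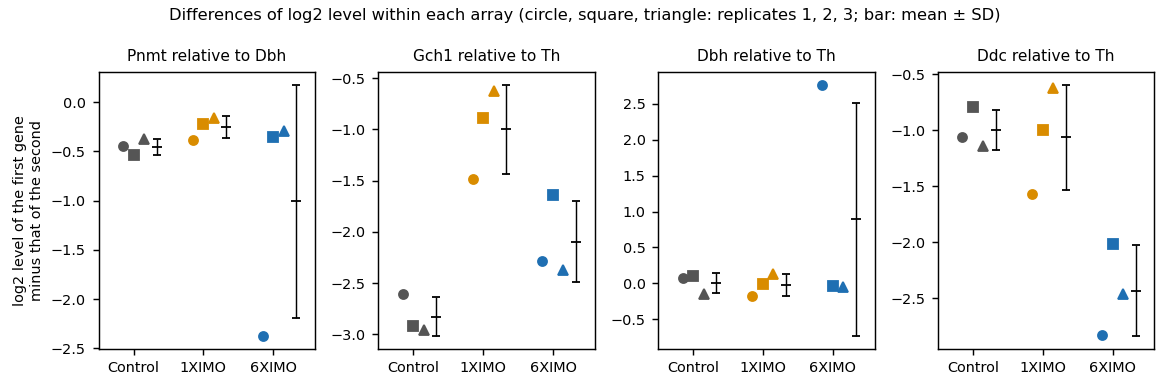
Difference of the log2 levels of 2 genes within each array, for 4 pairs, by group; circles, squares and triangles are replicates 1, 2 and 3, and bars are mean ± SD. On the deposited scale Gch1 relative to Th was highest in 1XIMO, Ddc relative to Th was lowest in 6XIMO, and the pairs of Th, Dbh and Pnmt differed little except on 6XIMO replicate 1.

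The genes with the profile most like each gene's were those with the smallest root mean square difference of log2 levels, each centred on its own mean, over the 9 arrays and among 11287 genes. For Gch1 they were Dusp1 at 0.236, which encodes a phosphatase of MAP kinases, Slc7a5 at 0.313, an amino acid transporter, and Egfr at 0.320. For Th they were Gnas at 0.145, Rpl7a at 0.209 and Pgrmc1 at 0.228. For Dbh they were Hsp90ab1 at 0.129, Chga at 0.147, the granule protein chromogranin A, and Rps29 at 0.198. Pnmt was nearest to Pgk1, Resp18 and Tubb2a, Ddc to Gpx3, Cacybp and Plpp1, Pts to Ggact, Cpd and Gtf2e2, and Qdpr to Cct2, Ndfip1 and Atp5pf. Without 6XIMO replicate 1, a setting chosen after the data were seen, the nearest of Th were Fdx1, of the cortex list, at 0.101, Dbh at 0.106 and Chga at 0.110. Those of Dbh were then Th, Chga at 0.111 and Pnmt at 0.114, and Dusp1 at 0.220 was still the nearest of Gch1. These are descriptions over arrays that share their scale and RNA quality, with no test.

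The other genes of the cofactors were followed as a list of 18: those of tetrahydrobiopterin, of ascorbate, which Dbh consumes, of pyridoxal phosphate, which Ddc needs, and of S-adenosylmethionine, the methyl donor of Pnmt. Of these, 11 have a probe set, 16 in all, and 14 probe sets of 10 genes passed the filter. The remaining 7 genes were not analysed here, and the results below cover no gene of pyridoxal phosphate. Slc23a1 and 1 of 3 probe sets of Mat2a did not pass. After 1 session 3 of 14 were called higher and 1 lower, with a median difference of 0.29. After 6 sessions 1 was higher and 1 lower (median 0.34), and from 1 to 6 sessions 1 was higher and 1 lower (median -0.41), against the same shares of all probe sets as above.

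Gchfr, the feedback regulator that binds and inhibits GTP cyclohydrolase 1, read 9.80, 10.09 and 10.03 in Control, 11.14, 12.56 and 12.38 in 1XIMO and 11.66, 10.62 and 10.35 in 6XIMO. All stressed arrays were above all Control arrays, with 1XIMO replicates 2 and 3 highest. It rose after 1 session by 2.05 ± 0.43 SE (adjusted p = 0.0239 by limma). With the replicate block its adjusted p was 0.0559, and the call was also lost without any 1 Control array or without 1XIMO replicate 2 or 3 (1.79 to 2.11). After 6 sessions it was 0.91 above Control, which was not called (adjusted p = 0.172). This was 0.51 without 6XIMO replicate 1 and after quantile normalization 1.25, neither called. Gchfr thus rose beside Gch1 after 1 session. Pcbd2, which helps recycle tetrahydrobiopterin, was not called on either probe set on all 9 arrays. Probe set 1379329_at was 0.76 above Control after 6 sessions when 6XIMO replicate 1 was left out (adjusted p = 0.0208 by limma).

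Of the S-adenosylmethionine genes, the catalytic and the regulatory subunit of methionine adenosyltransferase moved in opposite directions. Mat2a, the catalytic subunit, read on 1371350_at 14.63, 14.45 and 14.43 in Control, 16.20, 15.65 and 15.24 in 1XIMO and 17.38, 16.87 and 17.01 in 6XIMO, so that the 3 groups were separate and ordered. Its differences from Control were 1.19 after 1 session (adjusted p = 0.0480 by limma, 0.0514 with the replicate block) and 2.59 ± 0.30 SE after 6 (adjusted p = 0.00091). The latter was 1.47 after quantile normalization (adjusted p = 0.000169) and 2.44 without 6XIMO replicate 1 (adjusted p = 0.000109), and its adjusted p over other settings was at most 0.00972. It also rose by 1.40 from 1 to 6 sessions (adjusted p = 0.0252), and that difference was 0.15 after quantile normalization (adjusted p = 0.405) and 1.25 without 6XIMO replicate 1 (adjusted p = 0.00513). Its other probe set past the filter, 1387737_at, read 13.41, 11.66 and 12.50 in Control, 15.99, 15.14 and 14.70 in 1XIMO and 11.29, 13.97 and 13.57 in 6XIMO. It rose after 1 session by 2.76 ± 0.69 SE (adjusted p = 0.0458, 0.1 with the replicate block) and was 0.42 above Control after 6, which was not called. The probe sets of Mat2a thus gave unequal differences after 6 sessions. Both calls after 1 session were lost when any Control or 1XIMO array or 6XIMO replicate 3 was left out, and that of 1371350_at also without 6XIMO replicate 2. The differences were then 0.94 to 1.42 and 2.32 to 3.20. The call of 1371350_at between 6 and 1 sessions was lost without Control replicate 2 or 3, 1XIMO replicate 2 or 3 or 6XIMO replicate 3 (1.17 to 1.43).

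Mat2b, the regulatory subunit, read 14.21, 14.12 and 14.28 in Control, 12.85, 12.77 and 12.92 in 1XIMO and 11.93, 12.51 and 12.50 in 6XIMO. The 3 groups were separate, with Control highest and 6XIMO lowest. It fell by 1.35 ± 0.20 SE after 1 session (adjusted p = 0.00413 by limma) and fell by 1.89 ± 0.20 SE after 6 (adjusted p = 0.000666). The step from 1 to 6 sessions, -0.54, was not called (adjusted p = 0.127). Median centring was the setting that ended its calls (adjusted p = 0.396 and 0.0797). Its difference after 6 sessions was -2.01 after quantile normalization and -1.70 without 6XIMO replicate 1. Ahcy, Adk and Mtr, which clear or rebuild the products of methylation, were not called in any comparison on all 9 arrays. When 6XIMO replicate 1 was left out, Ahcy was 1.25 above Control after 6 sessions (adjusted p = 8.93e-05 by limma) and Adk 1369629_at was at -0.97 (adjusted p = 0.000733), both called. After quantile normalization of all 9 arrays Ahcy was 0.66 above Control (adjusted p = 0.0364) and Adk 1369629_at was not called.

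Of the ascorbate genes, Slc23a2, an ascorbate transporter, was called on 1 probe set, 1369378_at. It read 13.04, 10.63 and 12.12 in Control, 14.94, 12.03 and 12.14 in 1XIMO and 9.61, 9.81 and 9.93 in 6XIMO, lowest on all 6XIMO arrays and highest on 1XIMO replicate 1. It fell by 3.26 ± 0.78 SE from 1 to 6 sessions (adjusted p = 0.0349 by limma), and without 1XIMO replicate 1 the difference was -2.30 (adjusted p = 0.0784). The call was also lost without Control replicate 3, 1XIMO replicate 2 or 3 or 6XIMO replicate 2 or 3, at -3.76 to -3.26. Quantile normalization (-3.25, adjusted p = 0.0759), median centring (adjusted p = 0.0828) and the fit of only the compared groups (adjusted p = 0.0844) ended it too, and without 6XIMO replicate 1 it held at -3.17 (adjusted p = 0.0221). Its other probe set was not called on all 9 arrays, and was 0.82 above Control after 6 sessions without 6XIMO replicate 1 (adjusted p = 0.0249). Cyb561, which returns electrons to ascorbate in the granule, was 0.86 above Control after 6 sessions (adjusted p = 0.0678) and was not called in any comparison on all 9 arrays. It was 1.07 without 6XIMO replicate 1 (adjusted p = 0.00263), and after quantile normalization of all 9 arrays -0.13 (adjusted p = 0.573).

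**Figure D5:**
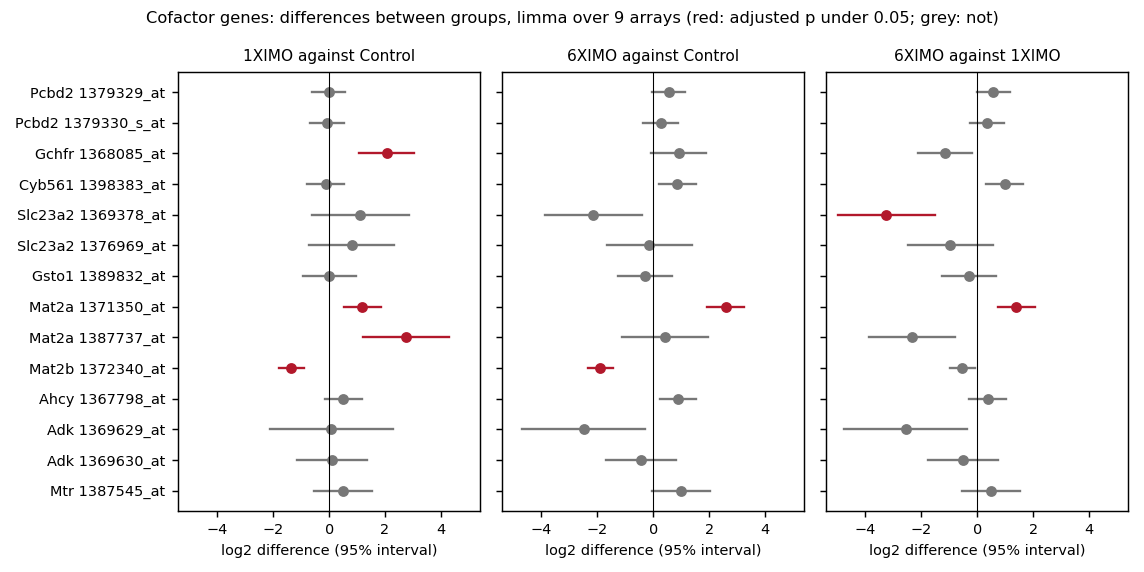
Log2 difference between groups with its 95% interval for the 14 cofactor probe sets past the filter, by limma over 9 arrays, in 3 panels for the 3 comparisons; red marks an adjusted p under 0.05. Gchfr, 2 probe sets of Mat2a and Mat2b are red after 1 session, and of these Mat2a 1371350_at and Mat2b are red after 6.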

How the data were processed

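The authors deposited linear-scale intensities of 31099 probe sets on 9 arrays, 57 of which are array controls and were left out. Per the labels, labelling was done by the array's manufacturer; no source used here gives the summarisation method, the background step or the scaling target. For arrays, their number limits the precision. Genes came from the platform's annotation table.

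Values were transformed as log2(intensity + 16), the dimmest 30% by mean level were left out, and limma 3.58.1 (lmFit, eBayes with trend; R 4.3.3) was fitted once to all 9 arrays, with 6 residual degrees of freedom, two-sided tests and Benjamini-Hochberg adjustment over 21729 probe sets. The fit was tested on simulated data, drawn as independent normal values with the Control spread on all arrays. These held no outlying array such as 6XIMO replicate 1, so that test does not cover the 6XIMO comparisons of the real data. All member probe sets and all called probe sets of the cofactor list are named; the members and lists were chosen with earlier results of these data known.

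Replicate numbers come from the sample titles. Deviations of same-numbered arrays correlated at 0.57, 0.38 and 0.25 between Control and 1XIMO, and those of differently numbered arrays at -0.48 to 0.35. Same-numbered arrays correlated at 0.13, 0.02 and 0.15 between Control and 6XIMO and at 0.15, 0.08 and 0.08 between 1XIMO and 6XIMO. The titles give only a number, and a pairing of the arrays was not established.

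Alternatives were a replicate block, quantile normalization, median centring, a shift by chromaffin markers, quantile normalization without 6XIMO replicate 1, pseudocounts of 1 and 64, no filter or a filter of 50%, 1 probe set per gene, fits of only the compared groups, array weights and leaving out each array.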

Additional observations from a re-analysis of the deposited data

Results flagged for a closer look

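The responses of 2 probe sets to 1 and to 6 sessions differed by the test of 6XIMO against 1XIMO itself. Ddc 1375317_at was lower after 6 sessions than after 1 by -1.54 on the log2 scale, with all 6XIMO arrays below all 1XIMO arrays. Dbh was higher by 2.02, with all 6XIMO arrays above all 1XIMO arrays, and this difference was 0.08 after quantile normalization.

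The array controls, which no comparison used, stood above the Control arrays on all 6XIMO arrays. The actin 3′/5′ ratio was 231 on 6XIMO replicate 1, 6.11 on replicate 2 and 8.87 on replicate 3, against at most 2.15 in Control. The GAPDH 3′/5′ ratio was 5.02, 1.79 and 1.87 on the same arrays, against at most 1.41 in Control. Their part in the 6XIMO results was not tested.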

How the results depend on the processing

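Of 727 alternatives for single probe sets, 574 kept the direction and the side of the threshold, 92 lost the call, 20 gained one and 41 turned the sign; the causes were not tested. Under every setting run, Gch1 kept its direction after 1 session on both probe sets, and Th, Dbh, Pnmt, both Gch1 probe sets and Ddc 1375317_at kept theirs after 6. The array weights fit stopped before it converged.

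After 1 session, 2 of 9 member probe sets were called. There were 0 under the replicate block, 0 under median centring, 1 with 1 probe set per gene (7 tested) and 0 to 2 with 1 array left out. Of the cofactor list 4 were called, 1 under the replicate block, 1 under median centring and 1 to 6 with 1 array left out. After 6 sessions, the 4 member calls became 2 under quantile normalization, 2 under median centring, 9 with array weights and 1 to 7 with 1 array left out. The 2 cofactor calls became 1 under median centring, 5 under the chromaffin shift, 6 under quantile normalization without 6XIMO replicate 1, 10 with array weights and 2 to 7 with 1 array left out. From 1 to 6 sessions, the 2 member calls became 1 under quantile normalization, 1 under median centring, 0 with only the groups compared, 9 with array weights and 0 to 6 with 1 array left out. The 2 cofactor calls became 0 under quantile normalization, 0 under median centring, 5 under the chromaffin shift, 6 under quantile normalization without 6XIMO replicate 1, 1 with 1 probe set per gene, 0 with only the groups compared, 10 with array weights and 0 to 8 with 1 array left out. The replicate block changed no other count of calls by over 1.5 times. With only the groups compared, 9 probe sets of the whole table were called from 1 to 6 sessions by limma, and 4243 had an unadjusted p under 0.05. Calls over all 21729 probe sets moved with the settings too. With array weights, 4527 were called higher and 9557 lower after 6 sessions, and 5020 and 8549 from 1 to 6. Under the chromaffin shift these counts were 432 and 9550, and 119 and 5293. Under quantile normalization without 6XIMO replicate 1 they were 2907 and 3578, and 1790 and 2153. Under median centring they were 830 and 521 after 6 sessions, 153 and 128 from 1 to 6, and 275 and 79 after 1. The replicate block gave 630 and 493 after 1 session.

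Within arrays, Gch1 relative to Th was 1.76 after 6 sessions and -0.11 from 1 to 6 under quantile normalization. Ddc relative to Th was -0.64 and -0.33 under quantile normalization and -2.23 and -2.01 with the mean of all probe sets of each gene.

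No probe set that turned its sign was called there on the deposited scale. From 1 to 6 sessions under quantile normalization, Th was -0.24, Pnmt -0.0039, Gch1 1387221_at -0.35 and Pts -0.0723; after 1 session Ddc 1368064_a_at was -0.0606 and Qdpr -0.15. Under the chromaffin shift, Ddc 1368064_a_at was -0.0652, Dbh -0.0269 and Qdpr -0.10 after 1 session, and Gch1 1387221_at was -0.59 and Pts -0.38 from 1 to 6. Under quantile normalization without 6XIMO replicate 1, Ddc 1368064_a_at was -0.057 and Qdpr -0.14 after 1 session, Pts 0.57 after 6, and Gch1 1387221_at -0.0365 and Qdpr 0.14 from 1 to 6. Under median centring, Ddc 1368064_a_at was 0.0227, Pts 0.0044 and Qdpr 0.12 after 6 sessions. With array weights, Qdpr was -0.0021 after 1 session, Ddc 1368064_a_at 0.51, Pts 0.44 and Qdpr 0.61 after 6, and Ddc 1368064_a_at 0.32 and Qdpr 0.61 from 1 to 6.
With 1 array left out, the differences of these probe sets that turned sign ran as follows. After 1 session they were -0.12 to 0.40 for Dbh, -0.0387 to 0.26 for Ddc 1368064_a_at, -0.50 to 0.0371 for Ddc 1375317_at, -0.0354 to 0.20 for Qdpr and -0.17 to 0.51 for Th. After 6 they were -0.54 to 0.51 for Ddc 1368064_a_at, -0.47 to 0.38 for Pts and -0.48 to 0.72 for Qdpr. From 1 to 6 they were -0.65 to 0.40 for Ddc 1368064_a_at, -0.40 to 0.56 for Gch1 1387221_at, -0.0877 to 0.77 for Pts and -0.56 to 0.65 for Qdpr.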
